A study of Homo sapiens with 12 samples.

Results

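The peaks described here are the H3K9me3 regions that the authors' annotation placed at a transcript of its class misc on chromosomes 1 to 22. The class holds antisense transcripts, pseudogenes, clone-named transcripts, small RNA genes and other genes outside the protein-coding, lincRNA and miRNA classes. Members were taken by that annotation column alone, which uses no level of the mark. They number 9697 of the 112068 peaks in the data, with 5889 of 65170 in the list of SMARCA3 knockout (KO) cells and 3808 of 46898 in the list of wild-type (WT) cells. On chromosomes 1 to 22 the lists hold 61828 KO and 42985 WT peaks in all.

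The groups were 293T cells carrying a SMARCA3 knockout and 293T cells with wild-type SMARCA3. The 293T line is a human embryonic kidney line that carries the SV40 large T antigen. Each group had 3 libraries of chromatin precipitated with an H3K9me3 antibody and 3 input libraries, described as biological triplicates. SMARCA3, now named HLTF, is a DNA translocase of the SWI/SNF-related family with a ubiquitin ligase RING domain. By its title, the study asks how SMARCA3 regulates H3K9me3. The sources used here do not say whether the KO cells are 1 clone. The authors deposited 1 peak list per genotype with no value per library. Replicate spread could therefore not be measured, no p-value was computed, and the intervals below are 95% intervals that cover the counting of peaks only. The depth of the libraries is unknown here, and a deeper or cleaner ChIP also yields more peaks, so the genotype and the depth or quality of its libraries cannot be told apart. Neither list holds a peak assigned to HLTF, and the lists carry no expression values, so they check neither the knockout nor the cell line.

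H3K9me3 marks constitutive heterochromatin, silent repeats and clusters of zinc finger genes, where it is placed by methyltransferases such as SETDB1 and SUV39H1 and read by HP1 proteins. An antisense RNA is made from the strand opposite a neighbouring gene, and its gene often begins near that gene's promoter. A pseudogene is a copy of a gene that has lost its coding function, either a duplicated stretch or a processed copy of a spliced RNA put back into the genome. Members of zinc finger, olfactory receptor and vomeronasal receptor clusters leave many such copies beside their working relatives.

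Promoters in the strict sense could be placed for only part of the genes, and some that carried a peak are shown as sequence. By the authors' annotation, 303 genes had a KO peak and 159 a WT peak with its middle within 250 bp of a start. RefSeq held 1 of the 1292 clone-named genes, so the starts of that class are nearly all left out here. RefSeq promoter windows of 300 bases (250 before the start and 50 after it, GRCh38.p14) were found for 230 of the 2595 genes. Of these, 8 met a KO peak and 3 met a WT peak, or 3.48% in KO and 1.30% in WT, and the 5 that met a KO peak alone were LINC01005, GNA14-AS1, ZNF649-AS1, ZNF350-AS1 and ZNF793-AS1. Over all 26246 RefSeq promoters of chromosomes 1 to 22, 183 (0.697%) met a KO peak and 73 (0.278%) a WT peak. The genes were included because they have a peak, so their higher shares follow in part from how they were chosen. The 5 promoters below run 5′ to 3′ on the strand of the gene, from RefSeq, and capitals mark every CG dinucleotide, the site of DNA methylation, which reads the same on both strands. They were picked after their values were seen, to show starts with few and with many CG sites. ZNF32-AS1 lies at chr10:43643622-43643921 on the plus strand, ATP2C2-AS1 at chr16:84467312-84467611 on the minus strand, LINC01005 at chr7:64030053-64030352 on the minus strand, ZNF649-AS1 at chr19:51887775-51888074 on the plus strand and ZNF350-AS1 at chr19:51948884-51949183 on the plus strand.
ZNF32-AS1: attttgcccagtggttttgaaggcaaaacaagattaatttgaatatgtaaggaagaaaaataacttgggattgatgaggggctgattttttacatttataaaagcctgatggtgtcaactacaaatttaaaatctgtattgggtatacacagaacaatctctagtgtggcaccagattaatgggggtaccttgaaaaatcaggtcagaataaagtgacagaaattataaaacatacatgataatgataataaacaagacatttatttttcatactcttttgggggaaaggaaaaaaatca
ATP2C2-AS1: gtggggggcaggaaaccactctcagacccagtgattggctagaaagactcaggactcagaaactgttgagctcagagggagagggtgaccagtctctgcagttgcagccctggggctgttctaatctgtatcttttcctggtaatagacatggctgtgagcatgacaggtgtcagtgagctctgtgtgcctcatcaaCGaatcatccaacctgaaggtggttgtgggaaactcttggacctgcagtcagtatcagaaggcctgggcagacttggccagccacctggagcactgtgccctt
LINC01005: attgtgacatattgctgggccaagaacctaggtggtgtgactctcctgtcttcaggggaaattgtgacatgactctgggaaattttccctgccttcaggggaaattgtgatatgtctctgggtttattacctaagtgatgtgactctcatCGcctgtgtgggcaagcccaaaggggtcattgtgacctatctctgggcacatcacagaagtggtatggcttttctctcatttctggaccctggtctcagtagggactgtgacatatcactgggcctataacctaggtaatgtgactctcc
ZNF649-AS1: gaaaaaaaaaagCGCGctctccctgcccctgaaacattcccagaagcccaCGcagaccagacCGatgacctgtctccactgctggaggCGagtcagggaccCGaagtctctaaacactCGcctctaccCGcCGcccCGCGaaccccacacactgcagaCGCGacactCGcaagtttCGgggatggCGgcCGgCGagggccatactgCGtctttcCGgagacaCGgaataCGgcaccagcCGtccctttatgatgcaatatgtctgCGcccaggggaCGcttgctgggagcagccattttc
ZNF350-AS1: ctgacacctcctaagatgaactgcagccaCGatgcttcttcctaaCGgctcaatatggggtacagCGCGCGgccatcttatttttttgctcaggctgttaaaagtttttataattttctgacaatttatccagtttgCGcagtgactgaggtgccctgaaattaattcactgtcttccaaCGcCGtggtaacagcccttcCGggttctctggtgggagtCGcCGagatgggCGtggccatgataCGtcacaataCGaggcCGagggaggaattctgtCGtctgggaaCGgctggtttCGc

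The window of ZNF32-AS1 holds 0 CG sites and lay wholly inside a peak in both lists, of 6593 bp and fold 6.15 in KO and of 5986 bp and fold 7.14 in WT. Fold is the authors' value for each peak, and it was used only to describe or rank peaks. The window of ATP2C2-AS1, beside the gene of a secretory-pathway calcium pump, holds 1 CG and met a peak of fold 3.91 in KO and 3.54 in WT. LINC01005, in the zinc finger stretch of chromosome 7, holds 1 CG and met a KO peak of fold 3.82 that covered 84 of its bases, and no WT peak. ZNF649-AS1 holds 25 CG sites and ZNF350-AS1 holds 18, and both windows lay wholly inside KO peaks, of fold 3.88 for ZNF649-AS1 and 2.15 for ZNF350-AS1, with no WT peak there. Of the 5 windows with a KO peak alone, only those of LINC01005 and ZNF350-AS1 met a peak given to that gene. The peaks at the other 3 were assigned to ZNF577 (at ZNF649-AS1), GNA14 and ZNF793, and are no members. At least 1 CG is present in 95.8% of all RefSeq promoters, whose median is 14, and 32.1% hold 25 or more. Capitals describe the letters only, and no methylation was measured.

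Peaks at these transcripts were more numerous in KO than in WT, by slightly more than the other peaks of the lists. The 5889 KO and 3808 WT peaks gave a ratio of 1.55 (1.48 to 1.61), against 1.43 (1.41 to 1.45) over all other peaks of chromosomes 1 to 22. The ratio was 1.33 (1.30 to 1.36) at protein-coding genes and 1.63 (1.56 to 1.71) at lincRNAs. The members made up 9.52% of the KO and 8.86% of the WT peaks, a difference of 0.666 points (0.310 to 1.02). KO peaks covered 4811421 bases and WT peaks 2688475 (ratio 1.79), and were 817 bp long on average in KO and 706 bp in WT. Over all other peaks the bases ratio was 1.63, and mean lengths were similar to the members', 811 bp in KO and 710 bp in WT. With the KO list shortened to the length of the WT list by fold, the ratio of peaks was 1.11 and that of bases 1.40. This cut drops KO peaks alone and makes both whole lists equally long by construction. Here and below it can only lower a KO to WT ratio, so a fall is no sign of a lost or reversed difference.

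Most WT peaks of the set had a KO counterpart, and fewer KO peaks had a WT counterpart. Of the KO peaks, 3109 (52.8%) met no WT peak, where the share over all KO peaks was 50.3%. Of the WT peaks, 559 (14.7%) met no KO peak, against 18.4% over all WT peaks. With an overlap of at least 1 bp counted as shared, the shared fraction was 47.2% in KO (45.9 to 48.5) and 85.3% in WT (84.2 to 86.4). A single KO peak more often spanned several WT peaks than the reverse. Of KO peaks, 9.51% met 2 or more WT peaks, and of WT peaks, 6.57% met 2 or more KO peaks. Over all peaks these shares were nearly the same, 9.24% in KO and 6.41% in WT. Shared peaks were nearly always given to the same gene in the other list, in 98.3% of KO and 96.4% of WT cases. Among members of fold 6 and above, 157 lay in KO and 80 in WT, and 99.4% of these KO peaks and 100% of these WT peaks were shared. Over all peaks of that fold, 1.05% in KO and 0.281% in WT met no peak of the other list, so the members stood near the background. At fold 4 and above there were 1778 KO and 1465 WT members (ratio 1.21), of which 75.1% in KO and 94.7% in WT were shared, where all peaks gave 77.1% in KO and 91.6% in WT.

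The genes were sorted by the form of their names into the classes that the plot of peaks by name class shows. Clone-named transcripts, which bear the name of a sequenced clone such as AL022068.1, were the largest class, with 2976 KO and 1901 WT peaks at 1292 genes. Pseudogenes had 1137 KO and 628 WT peaks at 664 genes, and antisense transcripts had 902 KO and 642 WT at 225 genes. Small RNA genes had 245 KO and 187 WT peaks at 201 genes, and the intronic, overlapping and divergent transcripts had 56 KO and 45 WT at 16 genes. The remaining 197 genes had 573 KO and 405 WT peaks.

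**Figure D1:**
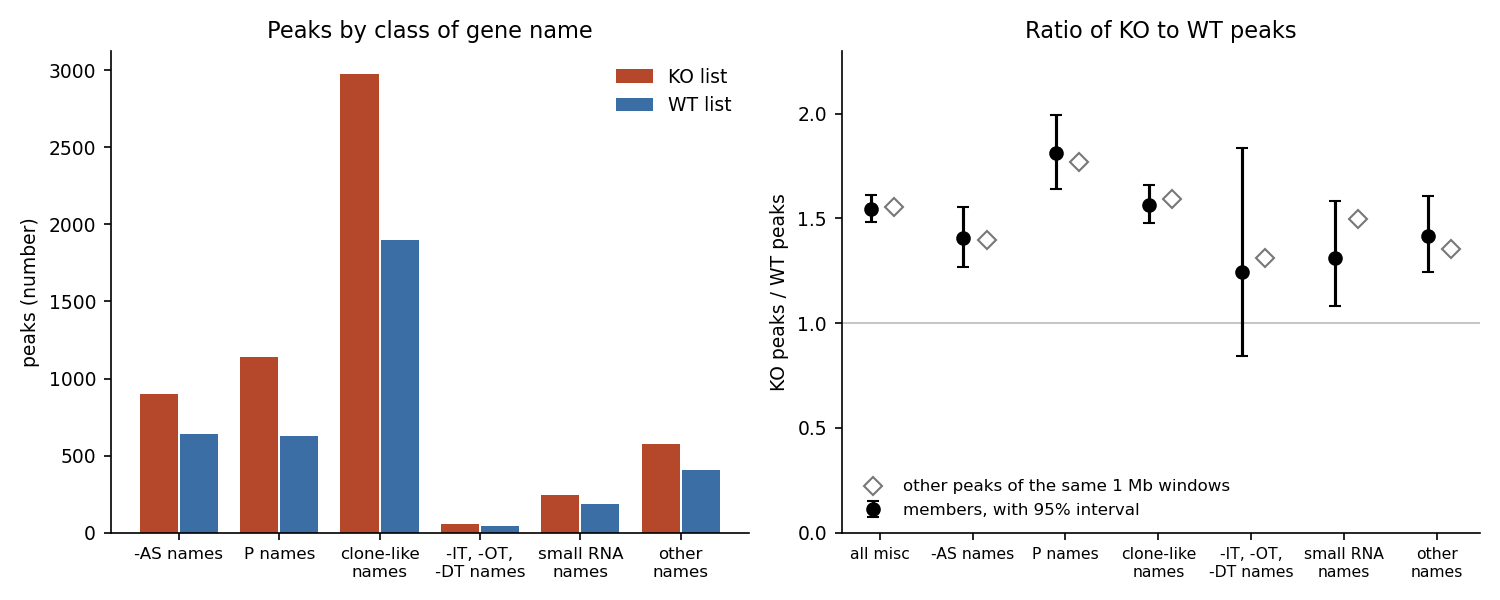
Left, number of peaks in the KO and WT lists for each class of gene name. Right, ratio of KO to WT peaks for all members and for each class (black, with 95% counting interval), beside the ratio that the other peaks of the same 1 Mb windows give (open diamonds). Pseudogenes have the highest ratio, 1.81, and their neighbouring peaks give 1.77.

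Antisense transcripts had a KO to WT ratio of 1.40 (1.27 to 1.55). Peaks were found in both lists at 171 of the 225 genes, in KO alone at 43 (19.1%) and in WT alone at 11 (4.89%). Over all genes with a peak these shares were 24.2% for KO alone and 5.72% for WT alone. The class was led by RNF219-AS1, which RefSeq now names OBI1-AS1. It spans chr13:77919689-78584162 on the plus strand, and its name refers to RNF219 (OBI1), which encodes a RING-type ubiquitin ligase of replication origins. RNF219-AS1 (ENSG00000234377) had 64 KO and 52 WT peaks. They covered 58880 bases in KO and 42819 in WT, or 8.86% of its span in KO and 6.44% in WT. Of its KO peaks 24 met no WT peak, and of its WT peaks 11 met no KO peak. Its strongest peaks were shared: the strongest KO peak, at chr13:78260056-78262270, had a fold of 9.84, and the WT peak over it, at chr13:78260083-78262275, had a fold of 7.68. The strongest WT peak, at chr13:78080153-78082050, had a fold of 8.82, and the KO peak there had 9.23. RNF219 itself, 30127 bp away, had 0 peaks in both lists.

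PKN2-AS1 on chromosome 1, opposite the gene of protein kinase N2, had 47 KO and 46 WT peaks, yet the KO peaks were longer, 1097 bp on average in KO against 725 bp in WT, and covered 51571 bases in KO against 33333 in WT. PKN2 itself had 5 KO and 1 WT peaks. GNG12-AS1, opposite the gene of a G protein gamma subunit, had 20 KO and 22 WT peaks over 16830 KO and 16127 WT bases, and its partner had 3 KO and 2 WT. ZRANB2-AS2 had 18 KO and 20 WT peaks with 5 unshared in KO and 7 in WT, and ZRANB2 had 0 in each list. ZNF571-AS1, in a zinc finger cluster of chromosome 19, had 15 peaks in each list and 22609 KO and 13027 WT bases. There a single KO peak of 8571 bp and fold 5.90 met 4 WT peaks. The numbers of peaks at these 4 genes were thus similar in the lists, and the differences in bases covered were largest at PKN2-AS1 and ZNF571-AS1.

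Of the 225 antisense genes, 224 had a protein-coding partner with a RefSeq body, and 160 overlapped that body. Several antisense genes share a partner, which left 216 distinct partners. A peak lay in the body of 127 of them (58.8%) in KO and 112 (51.9%) in WT. Over all 19126 protein-coding bodies the shares were 23.93% in KO and 21.01% in WT. The antisense genes are here because they have a peak, so peaks in the overlap count for both genes of a pair, and these shares describe neighbourhood. A shared control of the pairs was not tested. With the KO list shortened to the length of the WT list, the KO to WT ratio of antisense peaks was 0.989, below 1. That cut drops KO peaks alone, so it can only lower the ratio.

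**Figure D2:**
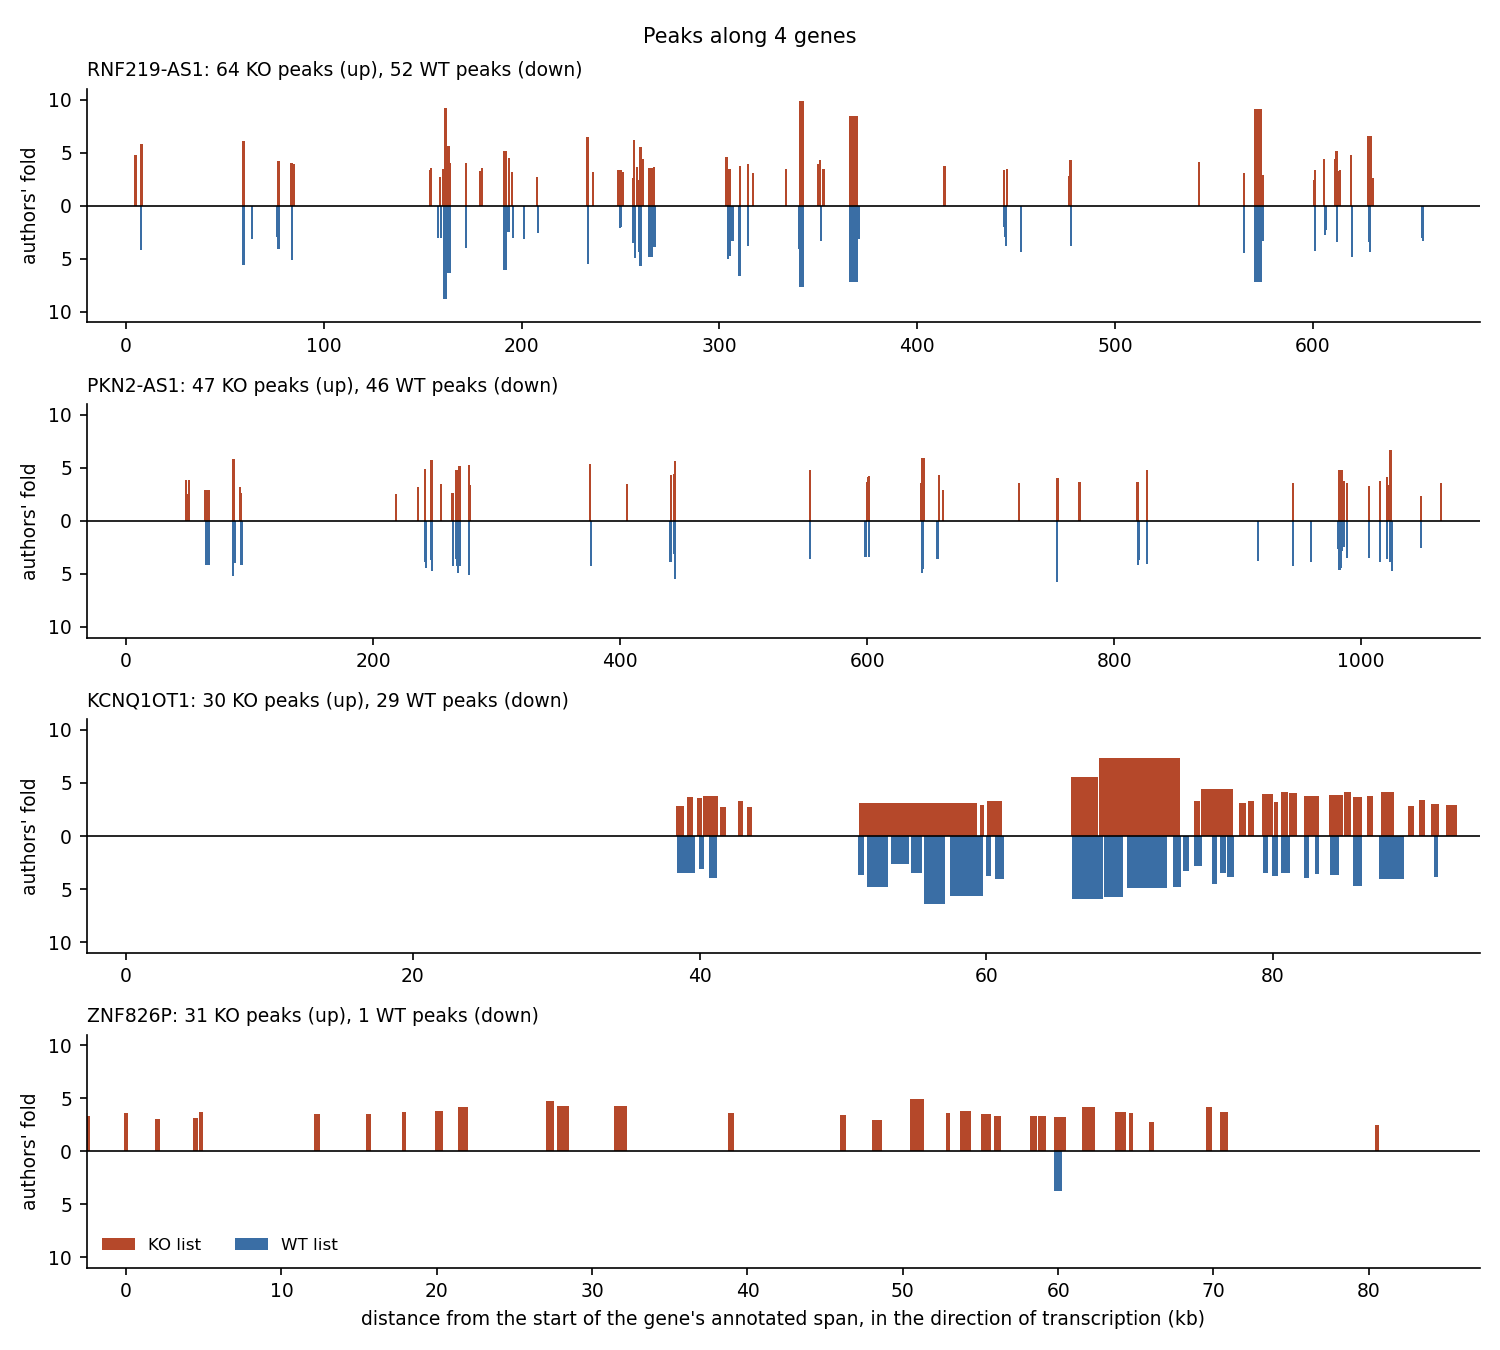
Peaks along RNF219-AS1, PKN2-AS1, KCNQ1OT1 and ZNF826P, drawn by distance (kb) from the start of the annotated span in the direction of transcription, with KO peaks above and WT peaks below the line and bar height giving the authors' fold. Along the first 3 genes the lists share most positions, and along ZNF826P 31 KO peaks face 1 WT peak.

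Pseudogenes had the largest ratio of any name class, 1.81 (1.64 to 2.00), and the lowest share of KO peaks with a WT counterpart, 39.3%. Their ratio was 1.27 with the KO list shortened to the length of the WT list. KO alone had a peak at 296 of the 664 genes (44.6%) and WT alone at 53 (7.98%), where all genes gave 24.2% for KO alone and 5.72% for WT alone. RefSeq held 662 of them, of which 99.2% are annotated as pseudogenes there. Chromosomes 19 and 7 gave 31.04% and 22.99% of the difference in peaks. Chromosome 19 had 228 KO and 70 WT peaks at pseudogenes, chromosome 7 had 159 KO and 42 WT, and chromosome 21 had 31 KO and 8 WT. Chromosome 15 had 35 KO and 6 WT, the highest ratio of any chromosome for pseudogenes (5.83, 2.52 to 13.5), of which 17 KO peaks were at the HERC2 pseudogene HERC2P3. Without chromosomes 7, 19 and 21 the pseudogene ratio was 1.42 (1.26 to 1.59), with chromosome 15 kept, against 1.40 (1.34 to 1.47) over all members and 1.34 (1.32 to 1.36) over all other peaks.

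ZNF826P, a zinc finger pseudogene at chr19:20340368-20424969, had 31 KO peaks over 15384 bases and 1 WT peak of 518 bases. Its peaks were of moderate fold, up to 4.90 in KO and 3.76 in WT, and 30 of the KO peaks met no WT peak. ZNF702P, on the distal long arm of the same chromosome, had 20 KO and 9 WT peaks over 15848 KO and 4675 WT bases. ZNF37BP on chromosome 10 had 16 KO and 14 WT peaks, with 26380 KO and 21215 WT bases and peaks covered 66.0% of its span in KO and 53.1% in WT. ZNF271P on chromosome 18 held the widest member peak in each list, 18779 bp of fold 7.54 in KO and 13314 bp of fold 10.8 in WT. ALOX12P2, a lipoxygenase pseudogene on chromosome 17, had 10 KO and 13 WT peaks. In the KO list shortened to the length of the WT list, ZNF826P kept 25 peaks against 1 in WT, and ZNF702P kept 10 peaks over 7430 bases against 9 over 4675 in WT. The numbers differed little at ZNF37BP, ZNF271P and ALOX12P2 in the full lists.

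Zinc finger names among the members covered 55 genes, with 304 KO and 189 WT peaks (ratio 1.61, 1.34 to 1.93). Their ratio was 1.16 (0.954 to 1.41) with the KO list shortened to the length of the WT list. The 36 zinc finger pseudogenes had 177 KO and 114 WT peaks, and 33 of them had more bases in KO and 3 fewer, where 80.2% of all genes had more bases in KO and 19.8% more in WT. The 15 zinc finger antisense genes had 93 KO and 47 WT, with 13 higher and 2 lower in bases. On chromosome 19 zinc finger names had 164 KO and 70 WT peaks. Off chromosomes 7 and 19 they had 128 KO and 108 WT.

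Copies of mitochondrial genes in the nuclear genome had 46 KO and 13 WT peaks at 40 genes (ratio 3.54, 1.93 to 6.49). Of the 40, 29 (72.5%) had a peak in KO alone and 2 (5%) in WT alone, where all genes gave 24.2% for KO alone and 5.72% for WT alone, and 70% of the family had a single peak over both lists. With the KO list shortened to the length of the WT list, 26 KO peaks were left and the ratio was 2.00 (1.04 to 3.85). Chromosome 7 held 24 of the KO and 4 of the WT peaks. In a run near the centromere of chromosome 7, MTND5P6 at chr7:57170974-57172771 and MTCYBP29 at chr7:57173357-57174362 had 2 KO peaks each, of folds up to 3.36 for MTND5P6 and 3.90 for MTCYBP29, and 0 WT peaks. MTCYBP42 at chr7:22747675-22748804 had 2 peaks in each list, of folds up to 3.97 in KO and 5.03 in WT. These copies resemble each other and the mitochondrial genome, and how reads that map to several places were treated is not stated in what was read here, so their peaks are uncertain. The folds of the family were low, with a median of 3.37 in KO and 3.61 in WT.

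Vomeronasal receptor pseudogenes, relics of pheromone receptor genes, had 37 KO and 6 WT peaks at 20 genes, with 16 genes (80%) in KO alone and 0 in WT alone. All genes gave 24.2% for KO alone and 5.72% for WT alone, and 9 of the 20 genes had a single peak over both lists. Their ratio was 6.17 (2.67 to 14.3), and 4.17 with the KO list shortened to the length of the WT list. On chromosome 19 they had 20 KO and 0 WT peaks, on chromosome 7 they had 11 KO and 2 WT, and elsewhere 6 KO and 4 WT. VN1R83P at chr19:21289554-21289998 had 4 KO peaks over 1614 bases, up to fold 4.21. VN1R20P on chromosome 3 had 3 KO peaks over 3090 bases and 1 WT peak over 373, but in the shortened KO list a single peak of 433 bases was left. VN1R21P, also on chromosome 3, had 1 KO peak of fold 2.06 and 2 WT peaks of folds up to 5.43, so the family was not higher in KO at every gene.

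Of the other families, ribosomal protein, keratin and HNRNP pseudogenes had ratios between 1.33 and 1.67, where all members gave 1.55. Olfactory receptor pseudogenes and copies of pericentromeric or duplicated genes had higher ratios, with wide intervals. Ribosomal protein pseudogenes, mostly processed copies, had 109 KO and 75 WT peaks at 89 genes (ratio 1.45, 1.08 to 1.95). RPS27P20 had 3 peaks in each list over 3737 KO and 1974 WT bases, and RPS15AP36 had 2 KO and 3 WT peaks. Olfactory receptor pseudogenes had 31 KO and 15 WT peaks at 25 genes (1.13 to 3.79 for a ratio of 2.07), of which OR5AH1P on chromosome 19 had 7 KO and 0 WT. Copies of pericentromeric or duplicated genes, grouped by name and not by position, had 22 KO and 10 WT peaks at 9 genes (ratio 2.2, 1.06 to 4.57). Among them, TPTE2P5 had 3 KO and 2 WT and GOLGA2P11 had 4 KO and 2 WT. Keratin pseudogenes had 12 KO and 9 WT peaks at 11 genes, and KRT8P44 had 4 KO peaks and 1 WT peak. Only the KO list held a peak at 3 keratin genes (27.3%), and only the WT list at 4 (36.4%). The shares for all genes were 24.2% (KO list only) and 5.72% (WT list only). A single peak over both lists was found at 5 of the 11 genes, 1 in KO and 4 in WT. The 4 genes with WT peaks only are thus in 1 list by construction. HNRNP pseudogenes, copies of RNA-binding protein genes, had 10 KO and 6 WT peaks, and HNRNPKP2 had 3 KO and 0 WT.

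Clone-named transcripts had a ratio of 1.57 (1.48 to 1.66), with a peak in both lists at 755 of 1292 genes, in KO alone at 445 (34.4%) and in WT alone at 92 (7.12%). These shares were near those over all members, 34.8% for KO alone and 7.28% for WT alone. All genes with a peak gave 24.2% for KO alone and 5.72% for WT alone. AL390334.1 on chromosome 14 had 46 KO and 5 WT peaks over 19452 KO and 3728 WT bases, and 43 of the KO peaks were unshared. AC011447.3 on chromosome 19 had 31 KO and 3 WT over 15978 KO and 881 WT bases. AL162726.3 on chromosome 9 had 38 KO and 17 WT, and AL022068.1 on chromosome 6 had 44 KO and 24 WT, of which 25 KO and 0 WT peaks were unshared. AL591485.1 on chromosome 6 had 27 KO and 19 WT, and AC087633.2 on chromosome 15 had 21 KO and 16 WT. AL445433.2 on chromosome 1 ran the other way, with 4 KO and 10 WT peaks over 5206 KO and 5896 WT bases. What these transcripts do is not annotated in the tables used here, where RefSeq held 1 of the 1292.

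Small RNA names cover genes and pseudogene copies of spliceosomal, signal recognition particle and ribosomal RNAs, and their ratio was 1.31 (1.08 to 1.58). All their peaks fell in the promoter classes, and the genes are short, with a median transcript of 108 bp at the KO peaks and 113 bp at the WT peaks. RNA5SP201, a ribosomal RNA pseudogene at chr6:3088686-3088809, lay wholly inside the peak of highest fold among all members in each list, 13.5 in KO and 11.97 in WT. RNU6-809P on chromosome 1 had 1 peak in each list, of fold 7.89 in KO and 7.47 in WT, and RNU5A-5P had 1 in each, of 7.08 in KO and 5.99 in WT. RN7SL824P had 4 peaks in each list. At RNU4ATAC12P, a copy of a minor spliceosome RNA, 1 KO peak of 5518 bp and fold 3.004 faced 5 WT peaks that together covered 2797 bp. With the KO list shortened to the length of the WT list the ratio of this class was 0.920.

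The 16 intronic, overlapping and divergent transcripts were dominated by KCNQ1OT1, the imprinted RNA made from within the potassium channel gene KCNQ1, which silences neighbouring genes on the chromosome that expresses it. KCNQ1OT1 lies at chr11:2608328-2699994 on the minus strand and had 30 KO and 29 WT peaks over 32793 KO and 25228 WT bases. Counting only bases inside it, peaks covered 34.96% of its span in KO and 27.5% in WT, and none lay near its start. Its strongest KO peak, of 5688 bp and fold 7.37, met 4 WT peaks, and its strongest WT peak had a fold of 6.37. With the KO list shortened to the length of the WT list the bases ratio of KCNQ1OT1 was 0.782, against 1.30 in the full lists. The other 15 genes of the class had few peaks, such as ST7-OT4 with 5 KO and 2 WT, ALMS1-IT1 with 2 KO and 2 WT and GPC5-IT1 with 2 KO and 2 WT.

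Among the remaining genes, OFCC1, a transcribed pseudogene in RefSeq first named in orofacial cleft research, had 37 KO and 28 WT peaks over 34999 KO and 20580 WT bases. LINC00624 had 35 KO and 22 WT, and DLEU1, a noncoding gene of the region lost in lymphocytic leukaemia, had 30 KO and 17 WT. ZNF883, which RefSeq annotates as protein-coding, had 23 peaks in each list over 19702 KO and 14959 WT bases. LINC02006 on chromosome 3 was lower in KO, with 2 KO peaks over 752 bases and 8 WT peaks over 4001. Among the genes named by the rule, 15 had peaks in both lists and at least 2 times the bases in KO. Of these, 9 kept that in the KO list shortened to the length of the WT list, and ZNF702P, ST7-OT4, KRT8P44, RPS15AP36, TPTE2P5 and VN1R20P did not. The plot of peaks per gene sets OFCC1, LINC00624, DLEU1 and ZNF883 beside leading genes of other classes.

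**Figure D3:**
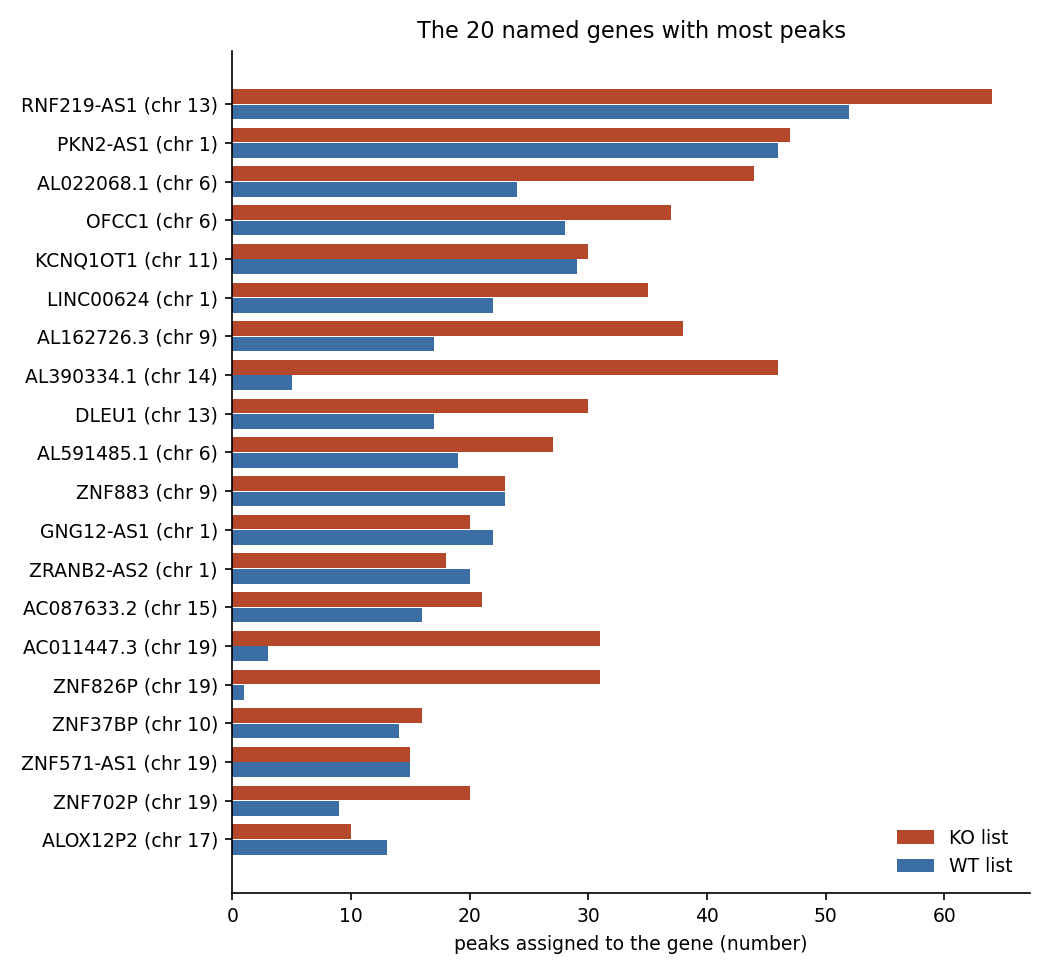
Number of peaks assigned to each of the 20 named genes with most peaks, in the KO list (upper bar) and the WT list (lower bar), with the chromosome in brackets. AL390334.1 (46 KO and 5 WT), AC011447.3 (31 KO and 3 WT) and ZNF826P (31 KO and 1 WT) differ most, while ZNF883 and ZNF571-AS1 have equal numbers.

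Counted by gene, 2595 genes carried a peak, and their calls leaned to KO as the calls of all genes did. A peak in KO alone was found at 903 genes (34.8%), against 24.2% of all genes with a peak. A peak in WT alone was found at 189 genes (7.28%), against 5.72% of all. At least 2 times as many peak bases in KO were found at 1344 genes (51.8%), where all genes gave 43.2%, and at least 2 times as many in WT at 226 (8.71%), where all gave 7.63%. These genes carry fewer peaks than others: 32.4% of them had a single peak over both lists, against 21.9% of all genes, and such a gene is in 1 list alone by construction. Of the 903 genes in KO alone, 879 had no peak that met a WT peak, and of the 189 in WT alone, 149 had no peak that met a KO peak, the others being shared under another gene's name as at ZNF32-AS1. Of the 903 genes, 669 had a single peak and 234 had at least 2 KO peaks. Among all 8965 genes, 2167 had a peak in KO alone, and 1522 of those had a single peak.

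The genes with most peaks in 1 list and none in the other were picked after their values were seen. HERC2P3, a pseudogene copy of the ubiquitin ligase gene HERC2 at chr15:20379495-20453880, had 17 KO peaks over 10893 bases, up to fold 4.82, and 0 in WT. AC006115.3 on chromosome 19 had 14 peaks, AC092447.7 on chromosome 7 had 12, AC095038.1 on chromosome 7 had 10 and the septin pseudogene SEPT14P1 on chromosome 7 had 9, all in KO. Of the 17 peaks of HERC2P3, 16 stayed in the KO list shortened to the length of the WT list. The largest counts in WT alone were smaller, 4 at AC026316.4 on chromosome 3 and 3 each at AC104115.2, CACYBPP1 and NUP35P1.

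By position in the gene, the ratio over chromosomes 1 to 22 was higher at transcript starts than inside genes, a difference that was small without chromosomes 7, 19 and 21. Peaks whose middle lay within 250 bp of a start were 307 KO and 160 WT peaks, giving 1.92 (1.59 to 2.32). Those beyond that and within 1 kb numbered 771 KO and 427 WT (1.81, 1.604 to 2.03), those out to 3 kb 1577 KO and 996 WT (1.58, 1.46 to 1.71), and those further inside the gene 3234 KO and 2225 WT (1.45, 1.38 to 1.53). All promoter-class peaks together gave 1.68 (1.58 to 1.78), against 1.57 (1.48 to 1.67) for promoter-class peaks of protein-coding genes. Promoter classes held 45.1% of the KO and 41.6% of the WT members, but 12.3% of the KO and 10.5% of the WT peaks at protein-coding genes. Without chromosomes 7, 19 and 21 the ratio was 1.41 for promoter-class peaks and 1.39 for gene-body peaks.

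Many promoter-class peaks lay beside the transcript and not on it. Of these peaks, 37.4% in KO and 33.2% in WT touched the assigned transcript. Among promoter-class peaks 63.4% in KO and 64.3% in WT had their middle upstream of the start. At pseudogenes, with a median transcript of 1258 bp at KO peaks and 1308 bp at WT peaks, 74.7% of KO and 72.1% of WT peaks were in promoter classes and 50.0% of KO and 45.7% of WT peaks touched the transcript itself. At antisense genes, with a median transcript of 89863 bp at KO peaks and 93874 bp at WT peaks, 13.3% of KO and 9.97% of WT peaks were in promoter classes. The transcript was touched by 93.0% of KO and 95.2% of WT peaks. A protein-coding gene body held 24.3% of the KO and 27.1% of the WT members. The strongest peak nearest a start in KO was at ZNF192P2, a zinc finger pseudogene on chromosome 6 whose start it covered, with a fold of 8.71 over 6847 bp in KO and 7.24 over 5580 bp in WT. In WT it was at RAC1P8, a copy of a small GTPase gene, of fold 7.59 in WT, where the KO peak over it had 5.77. EEF1A1P32, a copy of a translation elongation factor gene, had 1 KO peak of fold 6.45 over its start and a WT peak of 7.002, and the clone-named AL031985.3 had a KO peak of 6.75 over its start. That KO peak met 2 WT peaks, of fold 6.37 wholly upstream of the start and of fold 4.54 downstream of it.

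**Figure D4:**
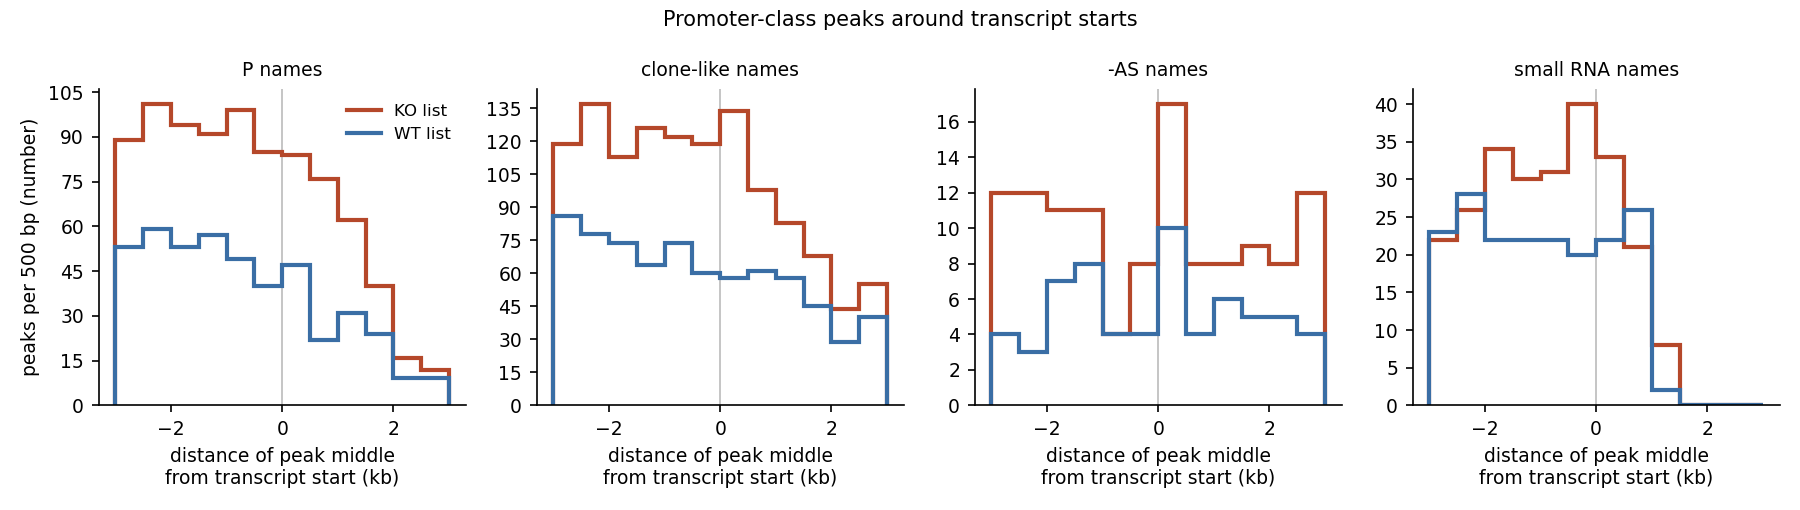
Promoter-class peaks per 500 bp by distance of the peak middle from the transcript start (kb, negative is upstream), for pseudogenes, clone-named, antisense and small RNA genes in the KO and WT lists. Pseudogene counts are highest upstream and low beyond 2 kb downstream in both lists, and the antisense bin from 0 to 500 bp holds 17 KO and 10 WT peaks.

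Ratios ranged more widely between chromosomes than between name classes. On chromosome 19 the members had 846 KO and 353 WT peaks (2.40, 2.12 to 2.71), against 2.03 (1.92 to 2.14) over the other peaks of that chromosome. On chromosome 7 they had 443 KO and 205 WT (2.16, 1.83 to 2.55), against 1.64 (1.56 to 1.72). On chromosome 21 they had 92 KO and 32 WT (2.88, 1.93 to 4.29), against 3.55 (3.25 to 3.89). Chromosome 1 held 558 KO and 471 WT, the lowest ratio of the 22 chromosomes, 1.18. On chromosome 15 they had 163 KO and 86 WT (1.90, 1.46 to 2.46), against 1.31 (1.19 to 1.43), and on chromosome 14 they had 238 KO and 119 WT, where intervals for members and other peaks overlapped. The other peaks were highest on chromosomes 21, 19 and 16, the last with 1.83, and the members gave 1.82 there. The plot of ratios by chromosome sets both beside each other.

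**Figure D5:**
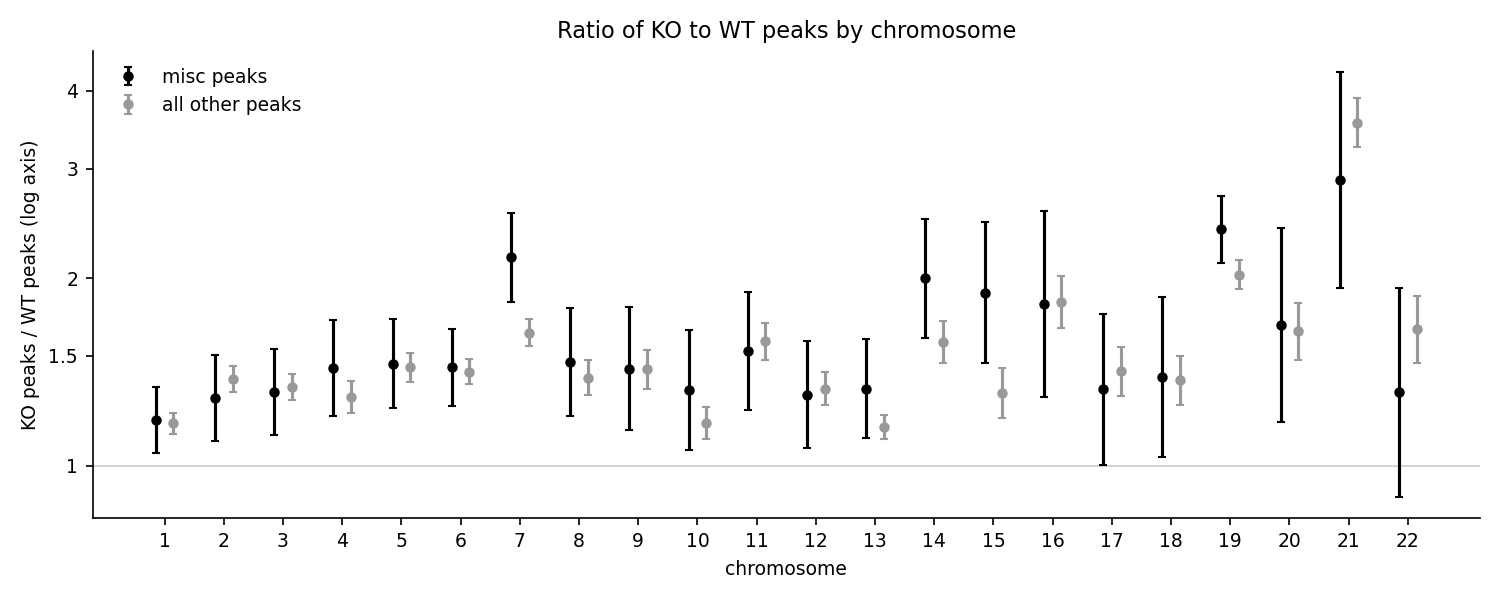
Ratio of KO to WT peaks on each of chromosomes 1 to 22 for the members (black) and for all other peaks (grey), on a log axis with 95% counting intervals. Members lie above the other peaks with separate intervals on chromosomes 7 and 15, and both are high on 19 and 21 with intervals that overlap.

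The neighbourhood was matched more closely in windows of 1 Mb, where each member was given the KO share of the other peaks of its own window. Members had a KO share of 60.7% (59.8 to 61.7), and the other peaks of the same windows gave 60.9%. As ratios these are 1.55 for the members and 1.56 for their neighbours. Antisense peaks had 58.4% against 58.3%, pseudogene peaks 64.4% (62.2 to 66.6) against 63.9%, and clone-named peaks 61.03% against 61.5%. The excess of pseudogenes over other members was thus of about the same size in the neighbouring peaks that belong to no misc gene. Small RNA peaks had 56.6% (51.9 to 61.2) against 60.0%.

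Families with few peaks spread more around their windows. Zinc finger names had a KO share of 61.7% (57.3 to 65.8) against 64.5% in neighbouring peaks. Mitochondrial copies had 78.0% (65.9 to 86.6) against 65.6%, just under the interval, and vomeronasal pseudogenes had 86.0% (72.7 to 93.4) against 75.9%, inside it. Olfactory receptor pseudogenes had 67.4% (53.0 to 79.1) against 55.5%. Peaks of 1 family lie in few windows and several share a window, so these intervals are too narrow.

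The largest differences between the lists sit in a few bins of 10 Mb, ranked here by the peaks that are no members. In the bin with the largest gain of such peaks, 20 to 30 Mb of chromosome 19, the members had 278 KO and 36 WT peaks (7.72, 5.47 to 10.9), of which 124 KO and 15 WT were at pseudogenes, and the other peaks gave 4.68 (4.07 to 5.37). In the bin of chromosome 21 from 20 to 30 Mb the members had 29 KO and 3 WT, and the other peaks gave 8.17 (6.78 to 9.85). In the bin of chromosome 7 from 60 to 70 Mb they had 105 KO and 12 WT (8.75, 4.86 to 15.8), with 78 KO and 10 WT at pseudogenes, and the other peaks had 875 KO and 372 WT (2.35, 2.08 to 2.66). On chromosome 19 from 50 to 60 Mb the members had 242 KO and 118 WT.

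In the 4 bins with the largest loss of other peaks in KO, the members made up between 1.21% and 18.7% of the peaks. On chromosome 13 from 80 to 90 Mb they had 11 KO and 9 WT peaks, where the other peaks gave a ratio of 0.811. On chromosome 10 they had 3 KO and 10 WT peaks from 10 to 20 Mb, where the other peaks gave 0.367, and 11 KO and 13 WT peaks in the first 10 Mb, where the other peaks gave 0.522. On chromosome 3 from 150 to 160 Mb, where LINC02006 lies, they had 17 KO and 23 WT, and the other peaks gave 0.328.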

How the data were processed

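H3K9me3 ChIP-seq of SMARCA3 KO and WT 293T cells was read from 2 deposited peak lists, 1 per genotype. The submitters' processing notes name HISAT2 and hg38. How the peaks were called, whether against the inputs, and how 3 replicates became 1 list: not given in the sources used here. Per the file headers, the authors gave each peak a fold enrichment (read as a ratio of ChIP over background), a q-value (read as an adjusted p-value within its list), a position, a region class, a gene type and a distance to a transcript. In the deposited files that distance (a signed number of bases) runs from the transcript start to the peak middle. The lists give no counts, so depth is unknown.

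Peaks of type misc on chromosomes 1 to 22 were taken and counted by gene ID. Genes were classed by name: -AS, P and a number, -IT, -OT or -DT, clone-like, small RNA, other. Families went by name too, and the pattern for mitochondrial copies was narrowed after the names were seen. The members and lists were chosen with earlier results of these data known. Overlap was at least 1 bp. Intervals are Wilson 95% intervals, the same turned into ratios, or Newcombe's for differences, tested on simulated data. They treat peaks as independent and cover counting error only. Neighbouring peaks were those not of type misc in the same 1 Mb window, and 30 members had none. RefSeq (GRCh38.p14) matched 1197 of 2595 genes (46.1%).

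Named were RNF219-AS1, the 10 genes with most peaks, the 5 with most unshared peaks in each list, those of the 3 strongest peaks per list and of the 4 strongest nearest a start, the 4 leading genes of each class, 3 of each family, and 3 antisense genes whose partner has peaks. Bins of 10 Mb were ranked by the peaks that are no members, a choice made after seeing the data. Alternatives in fold, list length, overlap, joining of peaks, chromosomes and denominator are in the closing section. Python 3.11.15, pandas 2.3.3, numpy 2.4.6 and matplotlib 3.10.9 were used.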

Additional observations from a re-analysis of the deposited data

Results flagged for a closer look

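Peaks of the same annotation class outside chromosomes 1 to 22 entered no comparison above. There were 170 KO and 184 WT peaks there (ratio 0.924, 0.750 to 1.14), and they were singled out because they are a signal in data left out of the counts. The most peaks there were at ARMCX5-GPRASP2, a readthrough gene on chromosome X, with 7 in KO and 14 in WT, and at AL807742.1, with 11 in KO and 8 in WT.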

How the results depend on the processing

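Of 24 planned values, 7 moved by less than their counting interval or stayed within 1.5 times the count, and 17 moved further; none changed direction. Keeping peaks with a fold no lower than 3.69, the median over both lists, the peak ratio was 1.21, the shared share 49.2% of KO and 69.5% of WT peaks, the bases ratio 1.56, and 536 genes had a peak in KO alone, against 903. With the KO list shortened to 46898 peaks by fold, the peak ratio was 1.11, the shared share 52.1% of KO and 69.9% of WT peaks, and the bases ratio 1.40. Without chromosomes 19 and 21 the ratios were 1.45 for peaks and 1.68 for bases. Over peaks with an assigned gene the difference in share was 1.66 points. With an overlap of at least 50% of both peaks, 26.6% of KO and 41.2% of WT peaks were shared, and within 1 kb 60.2% of KO and 91.9% of WT peaks. For these shared shares and for the 536 genes, values over all peaks or all genes at the same setting are not given here. Their shifts therefore cannot be read as traits of the members. At least 2 KO peaks and none in WT were found at 234 genes, and the counts over all genes are given above with the counts by gene. Joining peaks within 1 kb left 4030 KO and 2643 WT peaks. Among alternatives chosen after seeing the data, the shortened KO list gave ratios of 0.989 for antisense, 0.844 for intronic, overlapping and divergent and 0.920 for small RNA peaks and 0.556 for keratin pseudogene peaks, all above 1 in the full lists, and 0.782 for the bases of KCNQ1OT1. With the same minimum fold of 3.69, the bases ratio was 0.887 for KCNQ1OT1 and 0.863 for DLEU1. Shortening the KO list drops KO peaks alone, so it can only lower a KO to WT ratio. Beyond that, the cause was not tested. No paired analysis was possible because each genotype has a single list with no column per replicate, and no library could be left out for the same reason.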

Other observations

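Names shared by many gene IDs were kept apart by ID. The Rfam accession RF00019, given to 38 gene IDs among the members, had 50 KO and 39 WT peaks in all. In total 94 IDs bore an Rfam accession, with 128 KO and 93 WT peaks, and 41 bore a LINC name although the class lincRNA was separate, with 169 KO and 115 WT peaks.

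Some of the widest and strongest peaks were assigned to different genes in the lists. RPL23AP67 on chromosome 12 had a KO peak of 13934 bp that met 6 WT peaks. At TUG1, a noncoding gene on chromosome 22, a KO peak of 10601 bp and fold 6.95 was assigned to the lincRNA AC004542.2, and the WT peak under it, of 10335 bp and fold 5.41, to TUG1. PCDH9-AS3 on chromosome 13, opposite a protocadherin gene, had the strongest antisense peak, of fold 11.1 over 3282 bp in KO. The WT peak over it, of fold 10.4 and 4997 bp, was assigned to PCDH9 itself.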
